A study of Mus musculus with 12 samples.

Results

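The collagen genes of mouse liver are described here across Pml genotype and diet. A gene was taken as a collagen by its symbol, the letters Col with a chain number, and had to have at least 1 probe set annotated to that gene alone. By this rule 42 of the 17097 genes with such a probe set were collagens, measured by 68 probe sets. RNA came from livers of male mice that lacked or carried Pml, which encodes the scaffold protein of the PML nuclear bodies. Fat supplied 60% of the calories of the high-fat diet and 10% of those of the low-fat diet, which the mice ate for 20 weeks, with food withdrawn 8 h before liver harvest. The 4 groups were Pml-knockout mice on the high-fat diet, Pml-knockout mice on the low-fat diet, wild-type mice on the high-fat diet and wild-type mice on the low-fat diet. Of the 8 mice in each group, 3 liver extracts were analysed, each on its own Affymetrix array. The knockout allele, the strain and the age of the mice are not given in the sources used here. The labels do not state that the 3 extracts of a group came from separate mice, so p-values measure the spread between these extracts. The smallest exact permutation p that 3 against 3 arrays allow is 0.1, so differences were tested with limma across all genes.

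Collagens are matrix proteins whose chains wind around each other in a rope-like helix. Fibrillar collagens form the load-bearing fibres, collagen IV the sheet of basement membranes and collagen VI beaded filaments between them. The FACIT collagens sit on the surface of fibrils, transmembrane collagens are anchored in the cell membrane, and the multiplexins lie in basement membrane zones. In liver, stellate cells and portal fibroblasts are the best known makers of fibrillar collagen during scarring, and hepatocytes are a known source of collagen XVIII.

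Overall array profiles correlated at Pearson's r of 0.986 to 0.995 across all probe sets. The check on the labels held, since Pml had a log2 signal (brightness of its probe set after RMA) of 3.04 to 3.82 in the 6 knockout livers, against 4.92 to 5.40 in the 6 wild-type livers. Over both diets the log2 change of Pml, knockout minus wild type, was -1.66 (SE 0.133, limma adjusted p = 0.000225). The knockout values lay within background, whose 95th percentile was 4.14, so the change is given as a lower bound in size. The labels do not say whether its probe sets lie in the deleted part of the gene. Macrophage and Kupffer cell markers were lowest in knockout low-fat replicate 2 and knockout high-fat replicate 3, with mean log2 signals of 4.83 and 5.38. The other 10 arrays lay at 5.90 to 6.76. Means of sinusoidal endothelial markers were below 6 in knockout high-fat replicates 2 and 3 and knockout low-fat replicate 2, at 5.73, 5.76 and 5.89. The hepatocyte markers averaged 12.97 to 13.22 in every array, far above background.

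Most collagen genes lay near background in these livers. Genes of smell and pheromone receptors, which liver is not known to use, gave a measure of background. The 76 such genes had a median log2 signal of 3.18 and a 95th percentile of 4.14. The filter used for testing left out the 40% of genes with the lowest mean, and the lowest mean that passed was 4.08. Of the 42 collagens, 17 passed this filter and 25 did not. The means of 16 collagens lay above the 95th percentile of the receptor genes, and Col9a3, at 4.13, passed the filter without reaching it. Members just inside the filter were Col9a3, Col25a1 at 4.16 and Col4a6 at 4.25. Those just outside it were Col6a1 at 4.06, Col19a1 at 4.04, Col15a1 at 4.02, Col23a1 at 3.99 and Col1a1 at 3.89. These 5 each lay above the filter's level in 2 to 4 arrays, and the other 20 dim collagens in 0 arrays. A dim probe set limits what can be seen and does not show that the gene is silent.

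The classes differed in how many members had a usable signal. Among the fibrillar collagens 4 of 11 passed the filter (Col3a1, Col5a1, Col5a3 and Col27a1), and of collagen IV 3 of 6 did (Col4a1, Col4a2 and Col4a6). Collagen VI had 2 of 5 (Col6a2 and Col6a3) and the FACIT collagens 4 of 9 (Col9a3, Col14a1, Col16a1 and Col20a1). Of the transmembrane collagens Col13a1 and Col25a1 passed, and Col17a1 and Col23a1 were dim. The multiplexin Col18a1 passed and Col15a1 did not. Col7a1, the anchoring fibril collagen of skin, passed. All 3 short-chain network collagens (Col8a1, Col8a2 and Col10a1) and Col26a1 were dim. So were Col2a1, Col11a1, Col11a2 and Col24a1 of the fibrillar class, Col4a3, Col4a4 and Col4a5 of collagen IV, and Col6a4 and Col6a5 of collagen VI. The dim FACIT collagens were Col9a1, Col9a2, Col12a1, Col19a1 and Col22a1. Means of the dim members ran from 2.76 (Col24a1) to 4.06 (Col6a1). Probe sets differ in brightness for reasons other than transcript number, so these levels are set against background and not against each other.

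**Figure D1:**
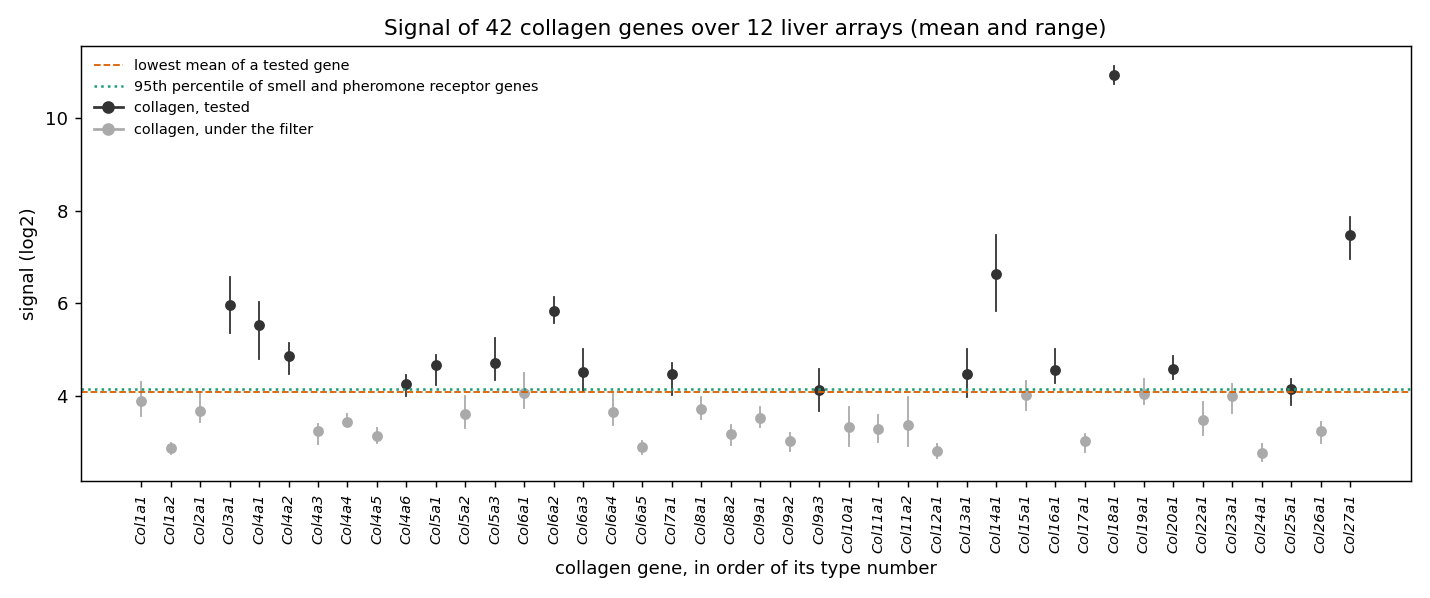
Mean log2 signal over all 12 arrays (points) with the range over arrays (bars) for the 42 collagen genes. The dotted line marks the 95th percentile of the smell and pheromone receptor genes (4.14) and 16 means lie above it, with Col18a1 at 10.91 on top. The dashed line marks the lowest mean that passed the filter (4.08).

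Knockout and wild-type livers did not differ in any tested collagen at an adjusted p of 0.05 (limma, Benjamini-Hochberg over all genes tested), on either diet or over both. On the high-fat diet 0 of 17 tested collagens passed, against 0.00975% of the 10258 genes tested, and 9 were higher and 8 lower in knockout livers. Their median log2 change was 0.05, against 0.00 over all genes tested. At an unadjusted p under 0.05 there were 3 collagens (Col13a1, Col27a1 and Col6a2), which is 3 of 17 beside 4.46% of all genes. Knockout and wild-type arrays did not overlap in 5 collagens, beside 11.8% of all genes: Col4a1, Col5a3 and Col6a2 were higher in knockout livers and Col13a1 and Col27a1 lower. On the low-fat diet again 0 passed (0.00975% of all genes), 8 were higher and 9 lower, and the median was -0.01. There Col27a1 alone had an unadjusted p under 0.05, beside 8.72% of all genes, and Col6a2 and Col27a1 did not overlap, beside 12% of all genes. Over both diets 0 passed (0.0195% of all genes), Col13a1, Col27a1 and Col6a2 had an unadjusted p under 0.05 (7.26% of all genes), and the median was 0.01, against 0.01 over all genes tested. Since these are bulk livers, fewer cells of a type and less RNA per cell cannot be told apart. The comparisons share arrays, so they do not support each other.

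**Figure D2:**
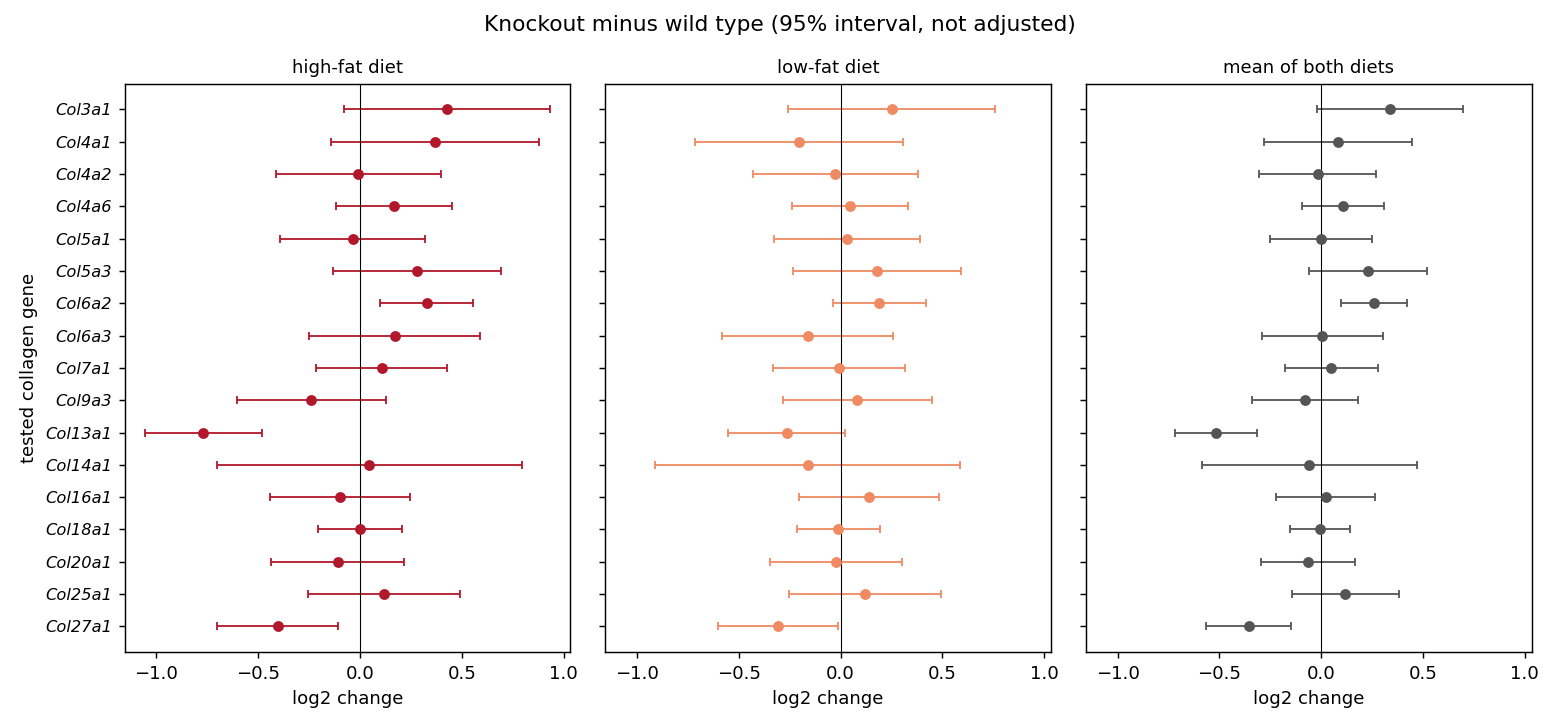
Log2 change, knockout minus wild type, of the 17 tested collagens on the high-fat diet, on the low-fat diet and over both (points), with limma's 95% interval, not adjusted for the number of genes (bars). Col13a1 has the lowest point on the high-fat diet, at -0.77, and most intervals span 0.

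The promoters of Col13a1, Col27a1 and Col6a2 are shown because these genes had the smallest p between genotypes. The 250 bases before each gene's start come from RefSeq on GRCm38.p6 and are printed 5' to 3' on the gene's own strand. Capitals mark matches on either strand. The motifs searched were the TATA box (letters TATAAA), the CCAAT box (named by its letters), the GC box (letters GGGCGG) and the DR1 element of nuclear receptors such as the PPARs (AGGTCA repeated after any 1 base). Col13a1 lies at chr10:61979109-61979358 (minus strand), Col27a1 at chr4:63215162-63215411 (plus strand) and the more upstream of the 2 windows of Col6a2 at chr10:76623631-76623880 (minus strand).
Col13a1: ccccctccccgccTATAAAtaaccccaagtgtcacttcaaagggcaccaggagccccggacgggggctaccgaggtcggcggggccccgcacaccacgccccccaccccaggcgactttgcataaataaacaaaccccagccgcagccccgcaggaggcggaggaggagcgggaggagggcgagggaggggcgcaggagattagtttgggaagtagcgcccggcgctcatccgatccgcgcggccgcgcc
Col27a1: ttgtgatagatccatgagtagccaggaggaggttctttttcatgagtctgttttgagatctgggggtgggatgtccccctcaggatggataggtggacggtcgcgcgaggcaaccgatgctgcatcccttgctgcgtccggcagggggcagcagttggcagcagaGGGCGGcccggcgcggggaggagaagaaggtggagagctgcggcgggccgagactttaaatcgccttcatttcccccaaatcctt
Col6a2: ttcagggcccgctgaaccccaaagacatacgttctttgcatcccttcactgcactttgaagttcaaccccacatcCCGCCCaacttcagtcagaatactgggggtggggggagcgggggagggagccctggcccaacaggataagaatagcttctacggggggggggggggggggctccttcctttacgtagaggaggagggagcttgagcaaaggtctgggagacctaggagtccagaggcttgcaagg

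The Col13a1 window holds TATAAA at 232 to 237 bases before the start. The Col27a1 window holds GGGCGG at 80 to 85 bases before it. The printed Col6a2 window holds the GC box on the other strand, printed as CCGCCC, at 170 to 175 bases. The other window of Col6a2, not printed, holds 3 matches of the GC box. A window was found for 33 of the 42 collagens, 36 windows in all. TATAAA was in windows of 5 of the 33 genes (Col3a1, Col10a1, Col11a2, Col13a1 and Col17a1), beside 12.4% of 32851 windows of the same length. The CCAAT box was in 13 of the 33 (33.8% of all windows) and the GC box in 20 (32.7%). Collagens were counted by gene, with a match in any of a gene's windows, whereas the shares are by single window. The DR1 element was in 0 of the 33, beside 0.0335% of all windows. A match describes the letters and is not a site of binding.

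Col13a1, a transmembrane collagen known for its part at cell adhesion sites and the neuromuscular junction, had the largest genotype difference of the 17 tested collagens on the high-fat diet and over both diets. Its 1 probe set had log2 signals of 4.01, 4.19 and 3.97 in knockout high-fat livers and 4.52, 4.29 and 4.28 in knockout low-fat livers. Wild-type livers had 4.87, 5.01 and 4.61 on the high-fat diet and 4.58, 4.80 and 4.50 on the low-fat diet. All 3 knockout high-fat arrays lay below all 3 wild-type high-fat arrays. On the low-fat diet the groups overlapped by 1 knockout array. The mean was 4.06 ± 0.118 in knockout and 4.83 ± 0.206 in wild-type high-fat livers (SD, n = 3 each). The log2 change was therefore -0.77 (1.70-fold, SE 0.132, 95% interval -1.06 to -0.48). It did not pass over all genes tested (limma adjusted p = 0.311), although its unadjusted p in the same limma fit was 7.2e-05. The 2 lowest knockout high-fat values lay under the 4.14 that marks background, so the fold may be compressed.

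On the low-fat diet the log2 change of Col13a1 was -0.26 (SE 0.132, limma adjusted p = 0.599), and over both diets -0.52 (SE 0.0936, adjusted p = 0.297). The diet difference ran down in knockout livers, with 4.06 on the high-fat and 4.36 on the low-fat diet (log2 change -0.30, adjusted p = 0.245), and the arrays did not overlap. In wild-type livers the means were 4.83 and 4.63 (log2 change 0.20, adjusted p = 0.727). The difference between these diet effects was -0.51 (95% interval -0.91 to -0.10), with an unadjusted limma p of 0.0188 and an adjusted p of 0.827. Of the sinusoidal endothelial markers, 11 of 11 tested were lower in knockout than wild-type high-fat livers, beside 4976 of all 10258 genes tested. Their median log2 change was -0.49, and 0 passed. Mean log2 signals of these markers were 5.73 to 6.49 in the knockout high-fat and 6.29 to 6.54 in the wild-type high-fat arrays. The mean of 6.49 came from knockout high-fat replicate 1, within the wild-type range, and Col13a1 was at 4.01 in that array. Without knockout low-fat replicate 2 and knockout high-fat replicate 3, the arrays with the lowest macrophage markers, the high-fat difference of Col13a1 was -0.73 (adjusted p = 0.357). The part of the endothelial signal in the result was not tested.

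**Figure D3:**
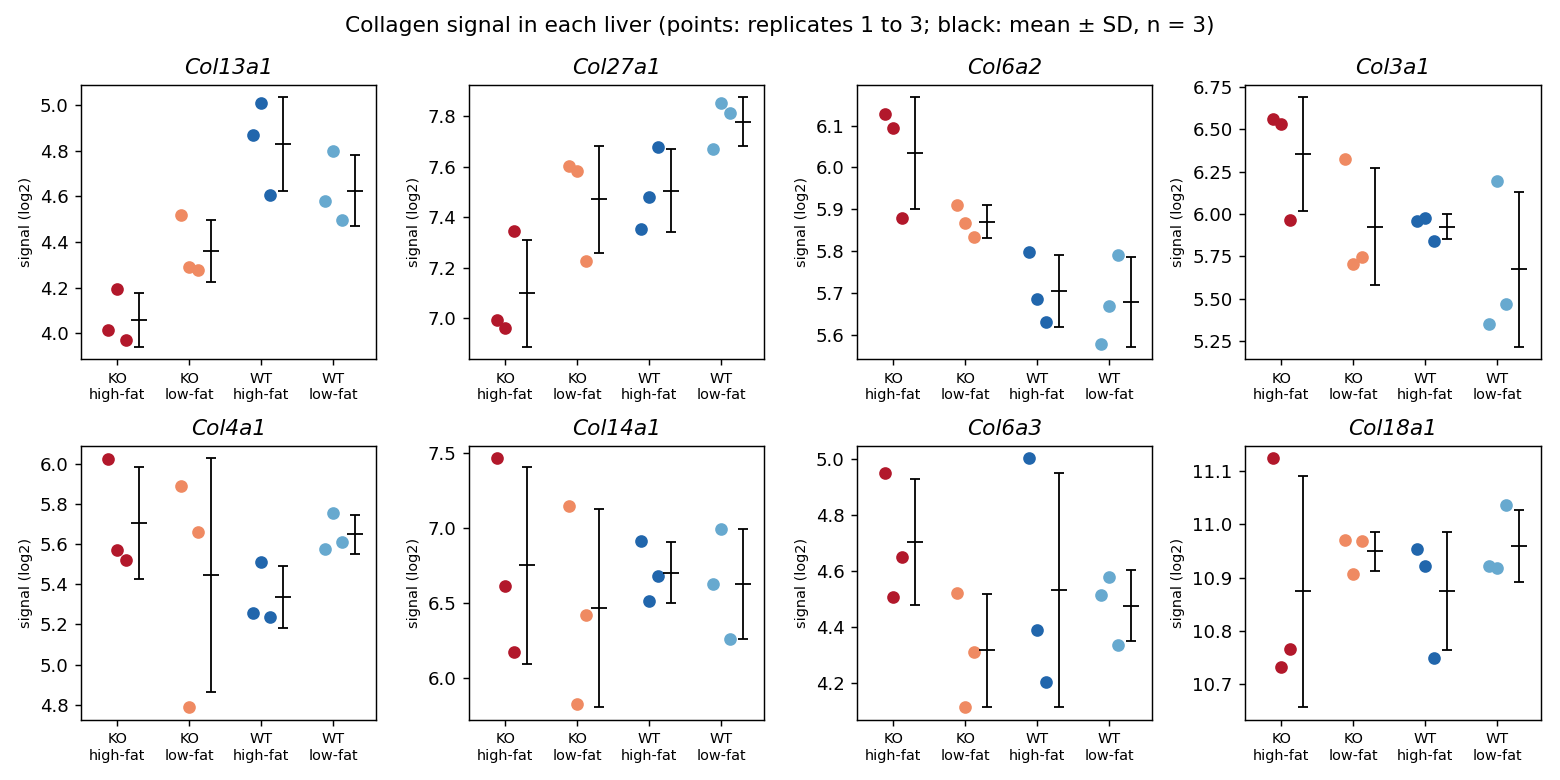
Log2 signal of single arrays (coloured points) for 8 collagens, in knockout (KO) and wild-type (WT) livers on the high-fat and low-fat diets, with each group's mean ± SD in black (n = 3); the axes do not start at 0. Col13a1 runs from 3.97 to 4.19 in knockout high-fat livers, below the 4.61 to 5.01 of wild-type high-fat livers, while Col14a1 scatters from 5.83 to 7.47 across arrays.

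Col27a1, a fibrillar collagen known from cartilage, also had lower values in knockout livers on each diet, without passing the test. It had 6.99, 6.96 and 7.34 in knockout high-fat and 7.60, 7.58 and 7.23 in knockout low-fat livers. In wild-type livers it had 7.35, 7.48 and 7.68 on the high-fat and 7.67, 7.85 and 7.81 on the low-fat diet. Knockout arrays lay below wild-type arrays on each diet, narrowly on the high-fat diet (7.34 against 7.35). The genotype difference was -0.40 on the high-fat diet (SE 0.137, limma adjusted p = 0.996) and -0.31 on the low-fat diet (SE 0.137, adjusted p = 0.559). Over both diets it was -0.36 (adjusted p = 0.596). A dimmer second probe set gave -0.49 on the high-fat and -0.26 on the low-fat diet. By diet, Col27a1 was 1.25-fold lower on the high-fat than the low-fat diet over both genotypes (log2 change -0.32, SE 0.0965, 95% interval -0.53 to -0.11). This was the smallest adjusted p of any collagen, 0.0796, and it did not pass. Without knockout high-fat replicate 3 the limma adjusted p was 0.0480, and without knockout low-fat replicate 3 it was 0.0339, with a log2 change of -0.38 in both. The second probe set gave -0.32.

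Col3a1, the chain of the reticular fibres of liver, had the largest positive genotype difference among the tested collagens. It had 6.56, 6.53 and 5.97 in knockout high-fat and 6.32, 5.71 and 5.75 in knockout low-fat livers. Wild-type livers had 5.96, 5.98 and 5.84 on the high-fat and 5.35, 6.19 and 5.47 on the low-fat diet. The groups overlapped on both diets, and within-group SDs reached 0.46. The log2 change, knockout minus wild type, was 0.43 on the high-fat diet (95% interval -0.08 to 0.93) and 0.34 over both (limma adjusted p = 0.705). By diet it was 0.34 over both genotypes (adjusted p = 0.281). Under the alternative ways of processing, the genotype difference over both diets ran from 0.19 to 0.49. The diet difference over both genotypes ran from 0.17 to 0.47.

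Col5a1 and Col5a3 encode chains of collagen V, which sits inside mixed fibrils. Col5a1 had 4.46, 4.87 and 4.75 in knockout high-fat and 4.89, 4.80 and 4.24 in knockout low-fat livers. In wild-type livers it had 4.59, 4.80 and 4.80 on the high-fat and 4.65, 4.65 and 4.54 on the low-fat diet. Its groups overlapped in each comparison, with a genotype difference over both diets of -0.00 (95% interval -0.25 to 0.25). Its dimmer probe sets gave 0.20 and 0.04. Col5a3 had 4.81, 4.99 and 4.77 in knockout high-fat livers, above the 4.62, 4.69 and 4.41 of wild-type high-fat livers. On the low-fat diet it had 4.35, 5.26 and 4.81 in knockout and 4.55, 4.83 and 4.51 in wild-type livers. The high-fat groups of Col5a3 stood apart by 0.28 on average (limma adjusted p = 0.996) and the low-fat groups overlapped.

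The chains of collagen I, the main fibre of scar tissue, were dim, each on 1 probe set. Col1a1 had 3.76, 4.29 and 4.29 in knockout high-fat and 3.84, 3.99 and 3.91 in knockout low-fat livers. Wild-type livers had 3.62, 3.93 and 3.85 on the high-fat and 3.79, 3.80 and 3.57 on the low-fat diet. The 2 highest values both came from knockout high-fat livers, and the knockout low-fat arrays lay above the wild-type low-fat arrays. In a fit without the filter the difference was 0.31 on the high-fat diet (limma unadjusted p = 0.0488) and 0.25 over both diets (adjusted p = 0.734). Col1a2 lay at 2.84 to 2.90 in knockout high-fat and 2.80 to 2.89 in knockout low-fat livers, against 2.76 to 2.98 and 2.84 to 2.98 in wild-type high-fat and low-fat livers. These values are below the median of the receptor genes and carry no comparison. Col5a2, the partner chain of Col5a1, had 3.86, 3.90 and 3.55 in knockout high-fat and 3.70, 3.57 and 3.64 in knockout low-fat livers. It had 4.01, 3.46 and 3.44 in wild-type high-fat and 3.31, 3.63 and 3.32 in wild-type low-fat livers, below background's 95th percentile in all 12 arrays.

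Col6a2, a chain of collagen VI, was the 1 collagen in which all 6 knockout arrays lay above all 6 wild-type arrays. Such a split was seen in 0.263% of all genes tested, in either direction. It had 6.13, 6.09 and 5.88 in knockout high-fat and 5.91, 5.87 and 5.83 in knockout low-fat livers. In wild-type livers it had 5.80, 5.69 and 5.63 on the high-fat and 5.58, 5.67 and 5.79 on the low-fat diet. The nearest arrays were 5.83 and 5.80, so the gap was small beside the spread within groups. Over both diets the log2 change was 0.26 (1.20-fold, SE 0.0748, 95% interval 0.10 to 0.42), with a limma adjusted p of 0.596. On the high-fat diet it was 0.33 (adjusted p = 0.996) and on the low-fat diet 0.19 (adjusted p = 0.645). The second probe set gave 0.21 and 0.20.

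Its partner chains did not show this split. Col6a3 had 4.95, 4.51 and 4.65 in knockout high-fat and 4.52, 4.11 and 4.31 in knockout low-fat livers. Wild-type livers had 5.0, 4.39 and 4.20 on the high-fat and 4.51, 4.58 and 4.33 on the low-fat diet. The genotype difference over both diets was 0.01 (95% interval -0.29 to 0.30), and the diet difference in knockout livers was 0.39 (limma adjusted p = 0.316). Col6a1, under the filter, had 4.39, 4.03 and 4.11 in knockout high-fat and 4.07, 3.75 and 4.03 in knockout low-fat livers. It had 4.50, 3.86 and 4.0 in wild-type high-fat and 3.81, 4.26 and 3.94 in wild-type low-fat livers, and its groups overlapped.

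Col4a1 and Col4a2 encode the common chains of basement membrane collagen IV and are known to lie head to head in the genome. Col4a1 had 6.03, 5.57 and 5.52 in knockout high-fat and 5.89, 4.79 and 5.66 in knockout low-fat livers. In wild-type livers it had 5.26, 5.51 and 5.24 on the high-fat and 5.58, 5.76 and 5.61 on the low-fat diet. On the high-fat diet the knockout arrays lay above the wild-type arrays (log2 change 0.37, 95% interval -0.14 to 0.88, limma adjusted p = 0.996), narrowly, and the second probe set gave 0.11. On the low-fat diet the difference was -0.20, and it was 0.13 without knockout low-fat replicate 2. In wild-type livers the high-fat arrays lay below the low-fat arrays (log2 change -0.31, adjusted p = 0.786), and the second probe set gave -0.05.

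Col4a2 had 4.93, 5.05 and 4.50 in knockout high-fat and 5.14, 4.99 and 4.48 in knockout low-fat livers. It had 4.58, 4.92 and 4.99 in wild-type high-fat and 4.79, 4.99 and 4.91 in wild-type low-fat livers. All its groups overlapped, with a genotype difference over both diets of -0.02 (95% interval -0.30 to 0.27). Over the 12 arrays the levels of Col4a1 and Col4a2 had a Pearson's r of 0.082 (permutation p = 0.804, 1 pair tested) and a Spearman's rho of 0.077 (permutation p = 0.817). Without knockout high-fat replicate 1 and knockout low-fat replicate 2 the r was 0.322. The other 5 pairs of partner chains listed had a member under the filter and were not set against each other. Col4a6 had group means of 4.33 and 4.28 in knockout high-fat and low-fat livers and 4.16 and 4.24 in wild-type high-fat and low-fat livers, with SDs of 0.15 to 0.16.

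The 4 tested FACIT collagens overlapped between genotypes on each diet. The dim Col9a1 had 3.45, 3.40 and 3.34 in knockout high-fat livers, below the 3.70, 3.51 and 3.72 of wild-type high-fat livers, all under background's 95th percentile (log2 change -0.25, limma unadjusted p = 0.0314 and adjusted p = 0.978 without the filter). Col14a1 (undulin), which binds along fibrils, varied more between arrays than between groups. It had 7.47, 6.61 and 6.17 in knockout high-fat and 7.15, 5.83 and 6.42 in knockout low-fat livers. In wild-type livers it had 6.92, 6.51 and 6.68 on the high-fat and 6.63, 7.0 and 6.26 on the low-fat diet. Its high-fat genotype difference was 0.05 with a 95% interval of -0.70 to 0.80, so changes of that width could not be seen. Col16a1 had 4.67, 4.43 and 4.47 in knockout high-fat and 4.54, 4.68 and 4.57 in knockout low-fat livers. It had 5.02, 4.34 and 4.50 in wild-type high-fat and 4.54, 4.29 and 4.55 in wild-type low-fat livers. Wild-type high-fat replicate 1 stood above the other arrays.

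Col9a3, at the edge of background, had 3.81, 4.38 and 4.23 in knockout high-fat and 4.15, 3.99 and 4.0 in knockout low-fat livers. In wild-type livers it had 4.37, 4.19 and 4.58 on the high-fat and 3.68, 4.21 and 3.99 on the low-fat diet. The wild-type groups overlapped by 1 array, with a log2 change by diet of 0.42 (limma unadjusted p = 0.0277, adjusted p = 0.488). Its second, dimmer probe set went the other way (-0.13). Col20a1 had group means of 4.52 and 4.56 in knockout high-fat and low-fat livers and 4.63 and 4.58 in wild-type high-fat and low-fat livers.

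Col18a1, whose product is cut to release endostatin, was far above background, and its groups overlapped in each comparison. It had 11.12, 10.73 and 10.77 in knockout high-fat and 10.97, 10.91 and 10.97 in knockout low-fat livers. Wild-type livers had 10.95, 10.92 and 10.75 on the high-fat and 10.92, 10.92 and 11.04 on the low-fat diet. The high-fat genotype difference was -0.00 with a 95% interval of -0.21 to 0.21, and the diet difference over both genotypes was -0.08 (-0.23 to 0.07). Signals of very bright probe sets are compressed on arrays, which limits how firmly the narrow interval can be read. Col15a1, the other multiplexin, was dim, with 3.77, 3.99 and 3.93 in knockout high-fat and 3.96, 4.26 and 4.02 in knockout low-fat livers. It had 4.02, 4.13 and 4.08 in wild-type high-fat and 4.09, 3.69 and 4.33 in wild-type low-fat livers. The high-fat groups did not overlap, narrowly (log2 change -0.18, limma unadjusted p = 0.247 without the filter). Col7a1 and Col25a1 overlapped in each comparison, with genotype differences over both diets of 0.05 and 0.12.

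Among the dim members, Col10a1, known from growth plate cartilage, had the smallest unadjusted p. It had 3.43, 3.73 and 3.76 in knockout high-fat and 3.29, 2.93 and 3.43 in knockout low-fat livers, against 3.20, 3.25 and 3.40 in wild-type high-fat and 2.92, 3.34 and 3.19 in wild-type low-fat livers. In the fit without a filter the diet difference in knockout livers was 0.42 (limma unadjusted p = 0.00966, adjusted p = 0.179). All 12 values lay below the 95th percentile of the receptor genes. Across all 42 collagens without the filter, 0 passed in any of the 7 comparisons, and the smallest adjusted p was 0.113 (Col27a1 by diet over both genotypes).

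The diets likewise left every tested collagen short of the threshold. In knockout livers 0 of 17 passed, beside 3.03% of all genes tested, with 10 higher and 7 lower on the high-fat diet and a median log2 change of 0.05 against -0.01 over all genes. Unadjusted p under 0.05 was found for Col13a1 and Col27a1, beside 18.3% of all genes, and Col13a1 alone did not overlap, beside 21.7%. In wild-type livers 0 passed (0.175% of all genes), 10 were higher and 7 lower, and the median was 0.04 against -0.00. There Col9a3 had an unadjusted p under 0.05 (8.82% of all genes) and Col4a1 did not overlap (15.7%). Over both genotypes 0 passed, beside 4.56% of all genes, with a median of 0.00 against -0.00. Col9a3 and Col27a1 had an unadjusted p under 0.05 (19.7% of all genes), and 0 collagens set all 6 high-fat arrays apart from all 6 low-fat arrays (3.27%). For the difference of the diet effects between genotypes 0 passed (0% of all genes), and Col13a1 had an unadjusted p under 0.05 (5.7% of all genes).

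**Figure D4:**
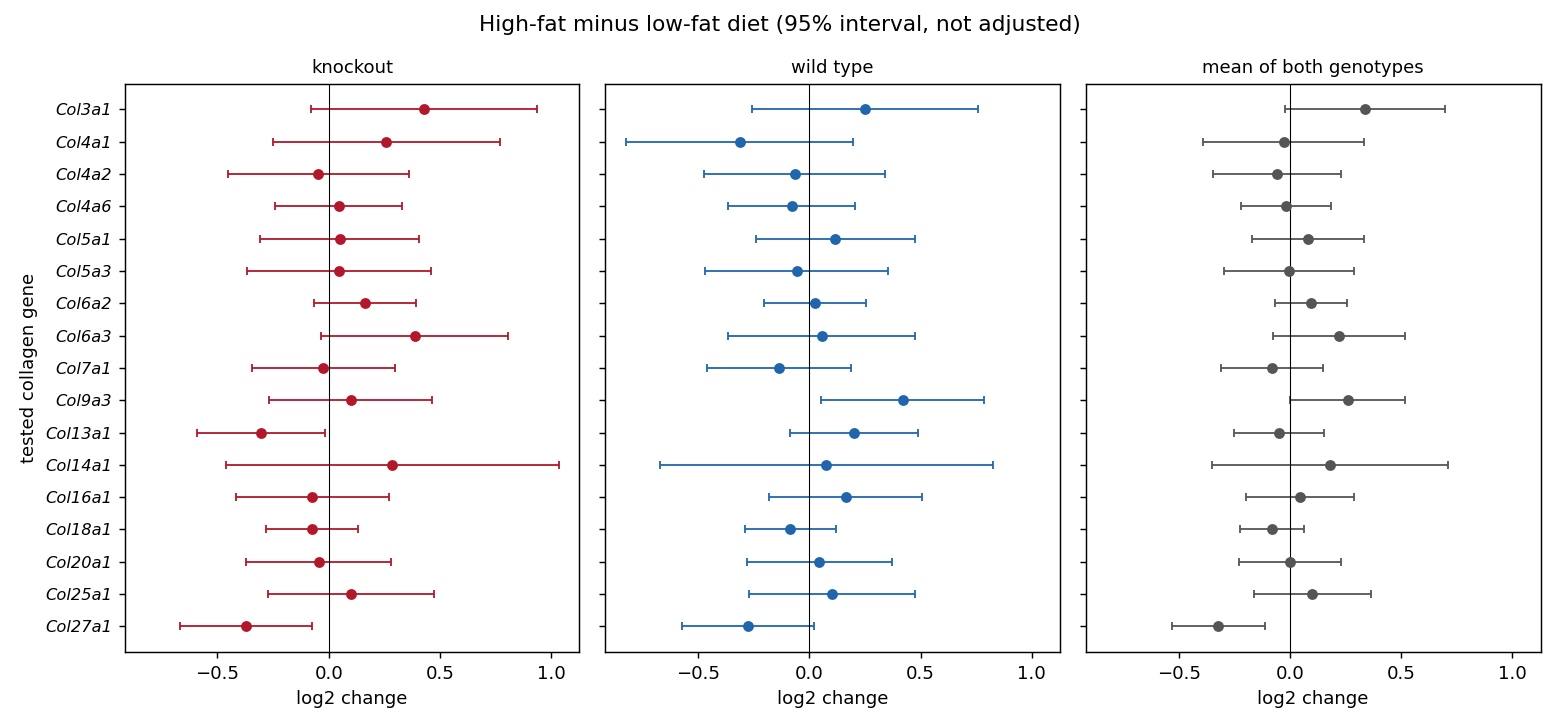
Log2 change, high-fat minus low-fat diet, of the 17 tested collagens in knockout livers, in wild-type livers and over both genotypes (points), with limma's 95% interval, not adjusted for the number of genes (bars). Over both genotypes Col27a1 is lowest at -0.32 and Col3a1 highest at 0.34.

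Genes that fold, cut and crosslink collagen chains, 13 tested of 31 listed, had 0 calls in any comparison, beside at most 4.56% of all genes called in one. With so few members 0 is near that share. P4ha2, a prolyl hydroxylase that stabilises the helix, had a log2 change of -0.54 on the high-fat diet over both genotypes (limma adjusted p = 0.0845). Plod3, a lysyl hydroxylase, had 7.26, 7.29 and 7.33 in knockout high-fat and 7.42, 7.31 and 7.42 in wild-type high-fat livers. Low-fat livers had 7.57, 7.60 and 7.48 in knockout and 7.45, 7.51 and 7.49 in wild type. All 6 high-fat arrays lay below all 6 low-fat arrays (log2 change -0.18, adjusted p = 0.0949). Such a split was seen in 3.27% of all genes tested, in either direction. Serpinh1, the collagen chaperone HSP47, had 6.14, 5.69 and 5.68 in knockout high-fat and 5.72, 5.18 and 5.27 in wild-type high-fat livers, a difference of 0.45 (adjusted p = 0.996). These arrays overlapped. On the low-fat diet Serpinh1 ran the other way, with means of 5.47 in knockout and 5.64 in wild-type livers. The crosslinking oxidases Lox, Loxl1 and Loxl2 were under the filter. Collagen receptors, 5 tested of 10 listed, had 0 calls, and so had the matrix partners such as laminins, 13 tested of 24. The matrix partner nearest to the threshold in the difference of the diet effects was Lamb2, a laminin chain (-0.96, adjusted p = 0.802).

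Of the genes of collagen breakdown, 11 tested of 20 listed, 1 passed by diet over both genotypes, beside 4.56% of all genes, and 1 in knockout livers, beside 3.03%. Counts of this size are near those shares. Mmp14, a membrane-bound collagenase, fell on the high-fat diet over both genotypes. It had 5.58, 5.58 and 5.32 in knockout high-fat and 5.44, 5.33 and 5.41 in wild-type high-fat livers. Low-fat livers had 6.05, 5.93 and 5.69 in knockout and 5.96, 5.80 and 6.01 in wild type. All 6 high-fat arrays lay below all 6 low-fat arrays, a split seen in 3.27% of all genes tested, in either direction. The log2 change was -0.47 (1.38-fold, SE 0.0862, limma adjusted p = 0.00946). Without knockout low-fat replicate 2 and knockout high-fat replicate 3 it was -0.41 (adjusted p = 0.0505). Mmp19, another matrix metalloproteinase, rose 1.61-fold on the high-fat diet in knockout livers (log2 change 0.69, SE 0.163, adjusted p = 0.0436). Its values were 6.11, 6.09 and 5.96 in knockout high-fat and 5.19, 5.42 and 5.50 in knockout low-fat livers, against 5.79, 5.70 and 5.74 in wild-type high-fat and 5.62, 6.09 and 5.34 in wild-type low-fat livers. That call was lost when any single array other than knockout low-fat replicate 3 or wild-type low-fat replicates 2 and 3 was left out, with adjusted p up to 0.149. The difference of the diet effects did not pass (0.63, adjusted p = 0.827). In the knockout comparisons 0 of the 11 passed.

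Levels of some collagens followed cell type markers from array to array. The marker lists were compared with the 17 tested collagens after the data had been seen, for stellate cells and sinusoidal endothelial cells, 34 correlations in all over 12 arrays. Col6a3 had a Pearson's r of 0.835 with the mean of the stellate cell markers (permutation p = 0.00061, adjusted 0.0207) and a Spearman's rho of 0.811 (permutation p = 0.0021, adjusted 0.0588). Without knockout high-fat replicate 1 and wild-type high-fat replicate 1 its r was lower, 0.621. Col14a1 had an r of 0.813 (permutation p = 0.00123, adjusted 0.0209) and a rho of 0.79 (permutation p = 0.00346, adjusted 0.0588), and 0.769 without those arrays. Computed on deviations from group means, r was 0.865 for Col6a3 and 0.803 for Col14a1. An r of at least 0.8 with these markers was reached by 53 of 10245 genes tested (0.517%). Stellate markers averaged 5.87 to 6.32 in knockout high-fat and 5.70 to 6.20 in knockout low-fat livers, against 5.81 to 6.38 in wild-type high-fat and 5.77 to 6.19 in wild-type low-fat livers. These ranges overlapped, and 0 of 13 tested stellate markers passed in any comparison. Over both genotypes 11 of the 13 were higher on the high-fat diet, beside 48.8% of all genes tested, with a median log2 change of 0.16. With the endothelial markers Col13a1 had an r of 0.582 (permutation p = 0.0491, adjusted 0.25), a rho of 0.51 (permutation p = 0.0921, adjusted 0.391), an r of 0.309 without knockout high-fat replicates 2 and 3, and 0.344 on deviations from group means. For Col14a1 and the endothelial markers r was 0.675 (permutation p = 0.0154, adjusted 0.167) and rho 0.685 (permutation p = 0.0167, adjusted 0.16), and r was 0.809 without those arrays. Col18a1 had an r of 0.653 with them (permutation p = 0.0196, adjusted 0.167), a rho of 0.678 (permutation p = 0.0188, adjusted 0.16) and an r of 0.296 without those arrays. Col5a3 ran the other way, with an r of -0.592 (permutation p = 0.0424, adjusted 0.25), a rho of -0.357 (permutation p = 0.256, adjusted 0.725) and an r of -0.605 without those arrays. The correlations with endothelial markers over all 12 arrays did not pass after adjustment. On deviations from group means, r with these markers was highest for Col14a1 (0.921) and Col4a1 (0.870). Next came Col18a1 (0.711) and Col6a3 (0.710), and Col5a3 was lowest (-0.511). These r on deviations were not tested.

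**Figure D5:**
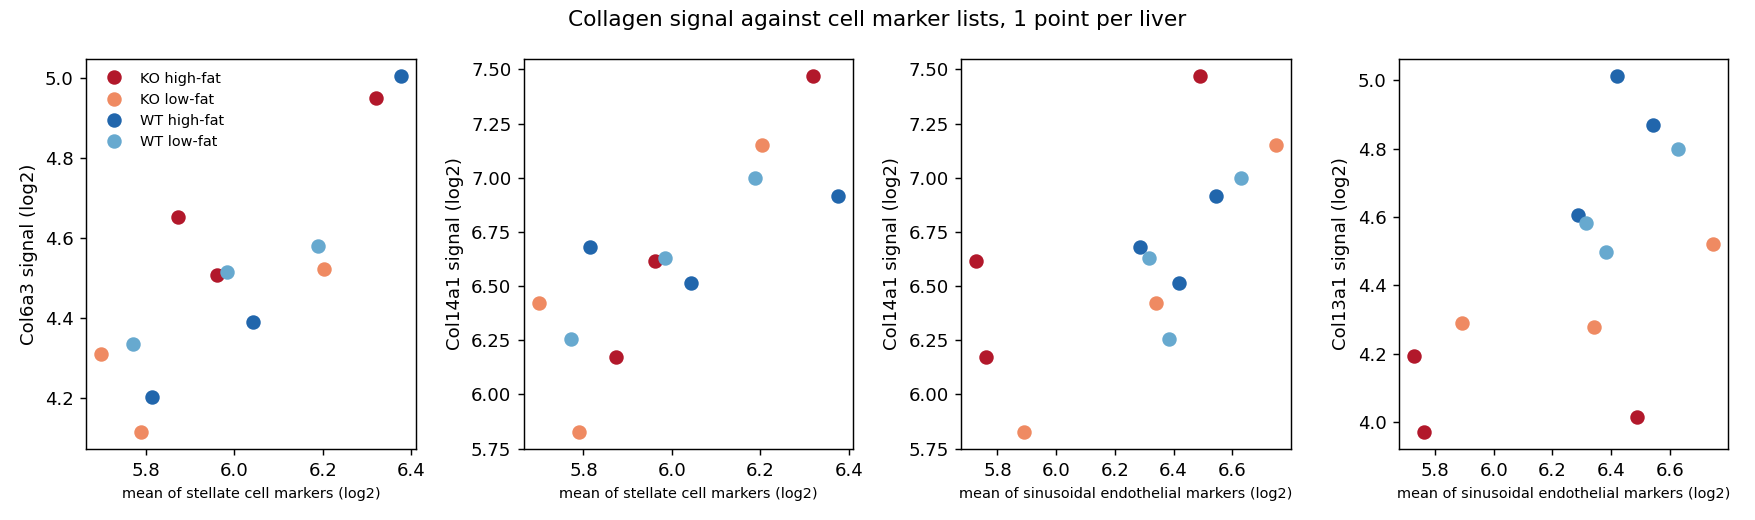
Log2 signal of Col6a3 and Col14a1 against the mean log2 signal of stellate cell markers, and of Col14a1 and Col13a1 against that of sinusoidal endothelial markers, 1 point per array and coloured by group. Col6a3 and Col14a1 climb with the stellate markers (r of 0.835 and 0.813), and the Col13a1 points of knockout high-fat livers lie low at marker means from 5.73 to 6.49.

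Portal fibroblast markers, 3 tested of 7 measured, and cholangiocyte markers, 1 tested of 5 measured, were mostly dim, with means by array of 3.52 to 3.80 and 3.48 to 3.66. Means of the 3 tested portal fibroblast markers were 4.73 to 4.91 in knockout high-fat livers, above the 4.47 to 4.69 of knockout low-fat livers. In that comparison 3 of 3 were higher, beside 48.4% of all genes tested, and 2 did not overlap, beside 21.7%. Means over all 7 measured portal fibroblast markers overlapped, at 3.73 to 3.80 in knockout high-fat and 3.52 to 3.74 in knockout low-fat livers. In wild-type livers 1 of the 3 tested was higher on the high-fat diet, beside 49.7% of all genes tested, with a median log2 change of -0.15. By array, means over all cholangiocyte markers overlapped between groups, and 0 markers of either list passed in any comparison. Macrophage markers were higher on the high-fat diet in 11 of 11 tested members in wild-type livers, beside 49.7% of all genes tested, with a median log2 change of 0.43. In knockout livers 8 of 11 were higher, beside 48.4% of all genes, with a median of 0.40, and 0 passed in either genotype. The part of these cells in the collagen values was not tested.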

How the data were processed

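Total RNA was extracted with Trizol and biotin-labelled, per the labels. The authors deposited log2 signals for 45141 probe sets on 12 arrays, summarised with RMA per the submitters' processing notes (version not stated there). This method commonly forces arrays to one signal distribution and compresses changes of very dim and very bright probe sets. Control probe sets (104) were left out. A single gene was annotated to 28898 probe sets, several to 551 and none to 15588, and those with several genes were not used.

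The brightest single-gene probe set stood for each of 17097 genes, and the 6839 dimmest genes (40%) were left out, which left 10258. Group means were fitted over all 12 arrays in R 4.3.3 with limma 3.58.1 and a variance trend, and p-values were adjusted by Benjamini-Hochberg over all genes tested in each of 7 comparisons, at a threshold of 0.05. The fit was tested on simulated data. A correlation was tested with 100000 permutations.

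The members, lists and tests were chosen with earlier results of these data known. Array values are printed for 14 collagens fixed by name and, per comparison, the 5 tested ones with the smallest p. Col9a1, Col10a1 and the crosslinking oxidases lay outside these rules and were picked after their values were seen. Of the other lists, members that passed and up to 3 with the smallest p are named. Same-numbered arrays deviated together with r from -0.166 to 0.381 over 18 pairs, and the replicate number was left out of the fit. Promoter sequences are from RefSeq (GRCm38.p6). Alternatives were quantile normalization, median centring, other filters on dim genes, other probe sets, robust variance, no trend, 2 groups alone, array weights, the replicate block, a threshold of 0.10 and fits without single arrays.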

Additional observations from a re-analysis of the deposited data

How the results depend on the processing

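Over 165 alternative counts of collagens past the threshold, 162 stayed at 0. The exceptions were all for the diets over both genotypes, where 1 collagen (Col27a1) passed at an adjusted p of 0.10, and where leaving out single arrays gave 0 to 1 (1 without replicate 3 of the knockout livers on either diet). Of 1790 values of single collagens 147 turned sign, at no point past the threshold, and the median over collagens moved by more than its spread between arrays in 15 of 158 alternatives. Col13a1 on the high-fat diet kept its sign, between -0.88 and -0.68, with adjusted p from 0.0902 (array weights) to 1.00. With the replicate number as a block, 0 collagens passed in each comparison, and the same-numbered arrays did not all deviate together (6 of 12 arrays correlated best with their own number). The count of all genes past the threshold ranged over the alternatives at 0.05 from 256 to 776 for the diets over both genotypes (468 as reported, 484 with the block and 921 at 0.10), and from 68 to 461 in knockout livers (311 as reported, 655 at 0.10). It ranged from 5 to 109 in wild-type livers (18 as reported, 65 at 0.10), from 0 to 5 for the genotypes over both diets (2 as reported, 1 with the block), from 0 to 3 on the high-fat diet and 0 to 4 on the low-fat diet (1 as reported on each), and from 0 to 1 for the difference of the diet effects. The cause was not tested. Mmp19 by diet in knockout livers also missed the threshold without a filter (adjusted p = 0.0584), without a variance trend (0.0507) and with 2 groups alone (0.0715). With 3 arrays a group and 25 of 42 collagens near background, moderate differences may have been missed.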
